A study of Arabidopsis thaliana with 4 samples.

Results

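Among the 234 genes that were listed as different between *msil2/4* and Col-0 stems, 5 were expansin or expansin-like genes, namely *EXLA1* (AT3G45970), *EXLA3* (AT3G45960), *EXLB1* (AT4G17030), *EXPA10* (AT1G26770) and *EXPA15* (AT2G03090). They were taken by locus identifier, and their listing was selected on the 4 libraries described here, so their differences between genotypes are given as a description with no test. Of the 78 genes in the table of lower transcripts, 2 were expansin-like A genes, and of the 156 genes in the table of higher transcripts, 3 were the expansin-like B gene and a pair of α-expansin genes. The transcripts of both *EXLA* genes were lower in *msil2/4* stems, by 21.5-fold and 9.41-fold in the mean, and those of *EXLB1*, *EXPA10* and *EXPA15* were higher, by 14.4-fold, 6.51-fold and 3.23-fold.

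The *msil2/4* plants are a double mutant obtained by crossing the T-DNA insertion alleles *msil2-1* and *msil4-1*, which affect a pair of genes for Musashi-like RNA-binding proteins. Col-0 is the wild-type *Arabidopsis thaliana* accession, and the sample labels describe the mutant genotype as a knockdown. Plants of both genotypes were grown in long days without treatment, and polyadenylated RNA was sequenced from the base of their mature inflorescence stems, with 2 libraries for *msil2/4* and 2 for Col-0. Replicates are described as biological, but how many plants went into a library is not given in the sources used here. Values are in RPKM, reads normalized to transcript length and to mapped reads. Depth is known only as a nominal figure, 30000000 single reads of 75 bases per library in the labels. That is the lower end of the range given in the paper. None of 18 marker genes of stem, leaf and flower cell types was listed, and neither were *MSIL2* and *MSIL4*, so the labelled tissue and genotype were not checked here.

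Expansins are small secreted proteins of the plant cell wall. They loosen the contacts between cellulose and hemicellulose at acidic pH without cutting the polymers, and so let a wall under turgor extend. Wall-loosening activity is established for α-expansins (EXPA) and β-expansins (EXPB). The expansin-like A (EXLA) and B (EXLB) groups were defined by sequence, and no such activity has been established for them. In stems, expansins are known from elongating cells and from differentiating vascular tissue.

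*EXLA1* and *EXLA3* are neighbors on chromosome 3, and their upstream sequences are shown because both transcripts were lower and because the genes share short runs there. *EXLA1* lies at chr3:16896166-16897308 on the plus strand, with 3 exons and a protein of 265 residues. *EXLA3* lies at chr3:16892702-16894153 on the same strand, with 2 exons in its longest transcript and a protein of 263 residues. The genes are 2012 bases apart with no protein-coding gene between them. The 250 bases before each annotated start are given 5′ to 3′ from the RefSeq TAIR10.1 assembly, chr3:16895916-16896165 for *EXLA1* and chr3:16892452-16892701 for *EXLA3*, and capitals mark runs of 10 or more bases that occur in both.
EXLA1: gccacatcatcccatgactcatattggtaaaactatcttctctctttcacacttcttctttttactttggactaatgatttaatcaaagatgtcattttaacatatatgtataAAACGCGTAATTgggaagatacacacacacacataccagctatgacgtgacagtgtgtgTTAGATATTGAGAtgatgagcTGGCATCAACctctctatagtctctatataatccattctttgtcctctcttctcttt
EXLA3: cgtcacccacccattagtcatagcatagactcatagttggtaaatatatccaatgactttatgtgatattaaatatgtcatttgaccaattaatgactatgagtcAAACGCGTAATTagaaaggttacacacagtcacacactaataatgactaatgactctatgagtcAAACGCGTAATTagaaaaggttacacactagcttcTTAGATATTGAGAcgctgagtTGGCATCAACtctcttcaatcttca

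The capitals cover 35 bases in *EXLA1* and 47 bases in *EXLA3*, in the same order in both. The run aaacgcgtaatt began 137 bases before the start of *EXLA1*, and 145 and 81 bases before the start of *EXLA3*. It was found in 5 of 27443 windows of the same length before annotated genes, or 0.018%. The run ttagatattgaga began 78 bases before the start of *EXLA1* and 46 bases before that of *EXLA3*, and 4 windows held it (0.015%). The run tggcatcaac began 57 bases before the start of *EXLA1* and 25 bases before that of *EXLA3*, and 12 windows held it (0.044%). The double occurrence in *EXLA3* is part of a direct repeat of 26 bases, ctatgagtcaaacgcgtaattagaaa, whose copies began 154 and 90 bases before the start. Each count includes the windows of *EXLA1* and *EXLA3* themselves. Most runs of this length are held by few windows whatever their letters, so nothing is read from the low shares. These runs were chosen after the sequences had been seen, and a shared run is a description of the letters and not a binding site.

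For the other pairs among the 5 genes, the longest common run had between 6 and 13 bases, and the one of 13 was the A-rich aaagtaaaaaata in *EXLB1* and *EXPA15*. *EXLA2* (AT4G38400), the third *EXLA* gene, which is in neither table, shared the run tatgacgtgac of 11 bases with *EXLA1*. Among 8 motifs searched on both strands, the ABRE core ACGTG occurred once in *EXLA1*, 93 bases before its start, and in 22.9% of all windows. The W-box core TTGAC occurred 3 times in *EXLA3*, at 169, 148 and 84 bases before its start. Its last pair of matches there lies in the copies of the 26-base repeat. Windows with any match made up 44.9% of all windows, and the share with 3 matches was not computed. The auxin response element TGTCTC occurred in *EXPA10* at 119 bases (10.9% of windows), and the sugar response element TATCCA in *EXLA3* at 204 bases (13.6%). The letters TATAAA were found in *EXLA1*, *EXLB1* and *EXPA15* and in 47.3% of windows. The G-box CACGTG, which contains the letters ACGTG, the GCC-box GCCGCC and the DRE core CCGAC, held by 6.5%, 1.9% and 12.0% of windows, matched in none of the 5 windows.

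The *EXLA* genes code for closely related proteins. Counted over the length of the shorter protein, EXLA1 and EXLA3 were identical at 86.3% of residues, EXLA1 and EXLA2 at 85.3%, and EXLA3 and EXLA2 at 80.2%. Both were at most 34.0% identical to EXLB1, EXPA10 and EXPA15, and at least 25.9%. EXPA10 and EXPA15 formed the other close pair at 80.2%, each with EXPA1 as a near relative at 81.1% for EXPA10 and 79.8% for EXPA15. EXLB1 stood alone, with 27.6% identity to EXPA10, 29.6% to EXPA15 and no more than 35.6% to any family protein, that one being EXPB2. The gene pair on chromosome 3 and the pair of α-expansin genes each lay on 1 side of the contrast. Only listed genes could count here, and the similarly close EXLA2 and EXPA1 were in neither table.

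**Figure D1:**
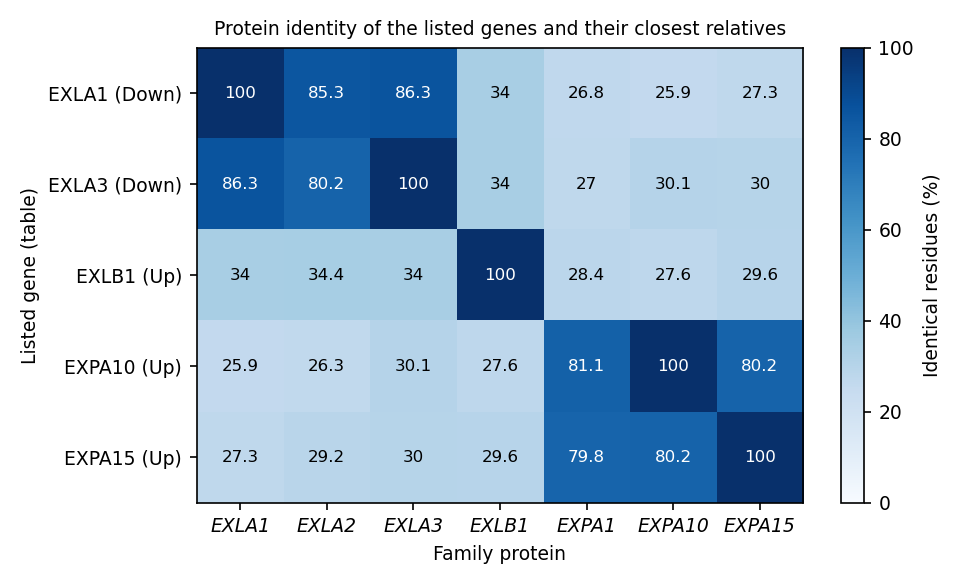
Percent identical residues in global alignments, counted over the length of the shorter protein. Rows are the 5 proteins, with the table that lists their transcript, and columns are these proteins and their relatives EXLA2 and EXPA1. The EXLA block is at 80.2 to 86.3% and the EXPA block at 79.8 to 81.1%, while EXLB1 is at no more than 34.4% to any other protein drawn.

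The histidine, phenylalanine and aspartate in a row that are typical of the N-terminal domain of α- and β-expansins were absent from both EXLA proteins and from EXLB1, and present in EXPA10 and EXPA15. Over the family of 36 loci, 35 of which have an annotated protein, these residues in a row were found in 23 of 25 EXPA and 5 of 6 EXPB proteins, and in 0 of 3 EXLA and 0 of 1 EXLB proteins. In the family, 3 loci were in the table of higher transcripts, 2 in that of lower transcripts and 31 in neither. These 31 were *EXLA2*, 24 *EXPA* genes and all 6 *EXPB* genes. Their values were not analysed here, and absence from the tables does not show that a transcript was unchanged. For comparison, 234 genes were listed in all, and 27443 windows before annotated genes were searched above. The family was chosen for its listed genes, so no enrichment is read from its count.

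Since reads from close copies can be assigned to the wrong gene, the windows of 75 bases along each transcript were compared with the other transcripts of the family. No window of the 5 genes occurred elsewhere in the genome without mismatch. In *EXLA1*, 32 of 915 windows (3.5%) were within 2 mismatches of *EXLA3*, and in *EXLA3* 32 of 1294 windows (2.47%) were within 2 mismatches of *EXLA1*. The most alike windows differ at 2 bases and are shown because they leave the fewest differences to tell the genes apart. A read from them without errors matches only its own gene without mismatch. The windows, with the mismatches in capitals, lie at chr3:16896242-16896316 in *EXLA1* and chr3:16892830-16892904 in *EXLA3*. Both are in the coding sequence on the plus strand and from RefSeq TAIR10.1.
EXLA1 coding window: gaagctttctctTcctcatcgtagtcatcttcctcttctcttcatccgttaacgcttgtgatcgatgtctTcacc
EXLA3 coding window: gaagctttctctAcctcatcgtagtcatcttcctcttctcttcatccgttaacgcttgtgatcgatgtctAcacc
For *EXPA10*, *EXPA15* and *EXLB1* no window came within 2 mismatches of another family transcript, the fewest being 6, 6 and 26. A separate overlap concerns the 3′ end of *EXLA1*, whose last 22 bases are also covered by the histone H2B gene *HTB9* (AT3G45980) on the minus strand. The library kits named were of the strand-keeping kind, and the strand setting of the counting is not given in the sources used here.

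In the 2 *msil2/4* libraries *EXLA1* was at 7.35 and 7.48 RPKM, against 235 and 83.6 RPKM in the 2 Col-0 libraries. The mutant libraries lay close together, the wild-type libraries lay 2.81-fold apart, and the groups did not overlap. The mean was 7.42 ± 0.0919 RPKM in *msil2/4* and 159 ± 107 RPKM in Col-0 (SD, n = 2 each), and the difference of log2(RPKM + 1), *msil2/4* minus Col-0, was -4.07 with a standard error of 0.55. That was the second strongest decrease among the 78 genes with lower transcripts. The 21.5-fold difference of the means rests in part on Col-0 replicate 1, and it was 11.3-fold without that library and 31.7-fold without Col-0 replicate 2. The lowest Col-0 library was still 11.2-fold above the highest *msil2/4* library.

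*EXLA3* was at 7.27 and 6.98 RPKM in the *msil2/4* libraries, against 80.7 and 53.4 RPKM in the Col-0 libraries. Again the mutant libraries were nearly alike and lay below both wild-type libraries. The mean was 7.13 ± 0.205 RPKM in *msil2/4* and 67.05 ± 19.2 RPKM in Col-0 (SD, n = 2 each), with a difference of -3.04 on the log2 scale (standard error 0.36), the fifth strongest decrease in its table. The fold of the means, 9.41, stayed between 7.50 and 11.3 when each library was left out in turn.

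The levels of the *EXLA* pair, which are scaled by transcript length, differed in Col-0 and nearly met in *msil2/4*. *EXLA1* over *EXLA3* was 1.01 and 1.07 in the *msil2/4* libraries, against 2.91 and 1.56 in the Col-0 libraries. Ranked by mean level among the 234 listed genes, *EXLA1* was 177th in *msil2/4* and 18th in Col-0, and *EXLA3* was 181st in *msil2/4* and 38th in Col-0. The values near 7 RPKM of both genes in *msil2/4* are not at the lower limit of the tables, since *EXLB1* was listed at 0.26 RPKM in a Col-0 library.

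*EXLB1* was at 8.01 and 24.9 RPKM in the *msil2/4* libraries, against 2.02 and 0.26 RPKM in the Col-0 libraries. Its libraries did not overlap between genotypes, but its replicates lay 3.11-fold apart in *msil2/4* and 7.77-fold apart in Col-0, as ratios of RPKM the widest among the 5 genes. If all 30000000 labelled reads had mapped, the lowest of these values would equal 8.71 reads on its transcript of 1117 bases. The mean was 16.5 ± 12.0 RPKM in *msil2/4* and 1.14 ± 1.24 RPKM in Col-0 (SD, n = 2 each), and the log2 difference was 2.97 (standard error 0.68), the 42nd of the 156 increases. The size of the 14.4-fold difference of means is set by single libraries. It was 21.9-fold without *msil2/4* replicate 1 and 7.03-fold without *msil2/4* replicate 2, and it was 63.3-fold without Col-0 replicate 1 and 8.15-fold without Col-0 replicate 2.

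*EXPA10*, an α-expansin gene, was at 7.71 and 15.2 RPKM in the *msil2/4* libraries, against 1.79 and 1.72 RPKM in the Col-0 libraries. Here the wild-type libraries were nearly alike, the mutant libraries lay 1.96-fold apart, and both mutant values were above both wild-type values. The mean was 11.4 ± 5.26 RPKM in *msil2/4* and 1.755 ± 0.0495 RPKM in Col-0 (SD, n = 2 each), with a log2 difference of 2.11 (standard error 0.41), the 72nd of the 156 increases.

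*EXPA15*, the closest listed relative of *EXPA10*, was at 38.45 and 42.2 RPKM in the *msil2/4* libraries, against 15.5 and 9.47 RPKM in the Col-0 libraries. It was the most abundant of the 5 transcripts in *msil2/4* and, of the 3 higher genes, the most abundant in Col-0. The mean was 40.3 ± 2.63 RPKM in *msil2/4* and 12.5 ± 4.27 RPKM in Col-0 (SD, n = 2 each), and the log2 difference was 1.65 (standard error 0.37), the 125th of the 156 increases. The tables were limited to genes with a log2 ratio of the deposited values per genotype beyond 1.5, and by this ratio *EXPA15*, at 1.52, was just inside the limit. The other ratios, 3.68 for *EXLB1*, 2.51 for *EXPA10*, -4.58 for *EXLA1* and -3.40 for *EXLA3*, lay further from it.

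**Figure D2:**
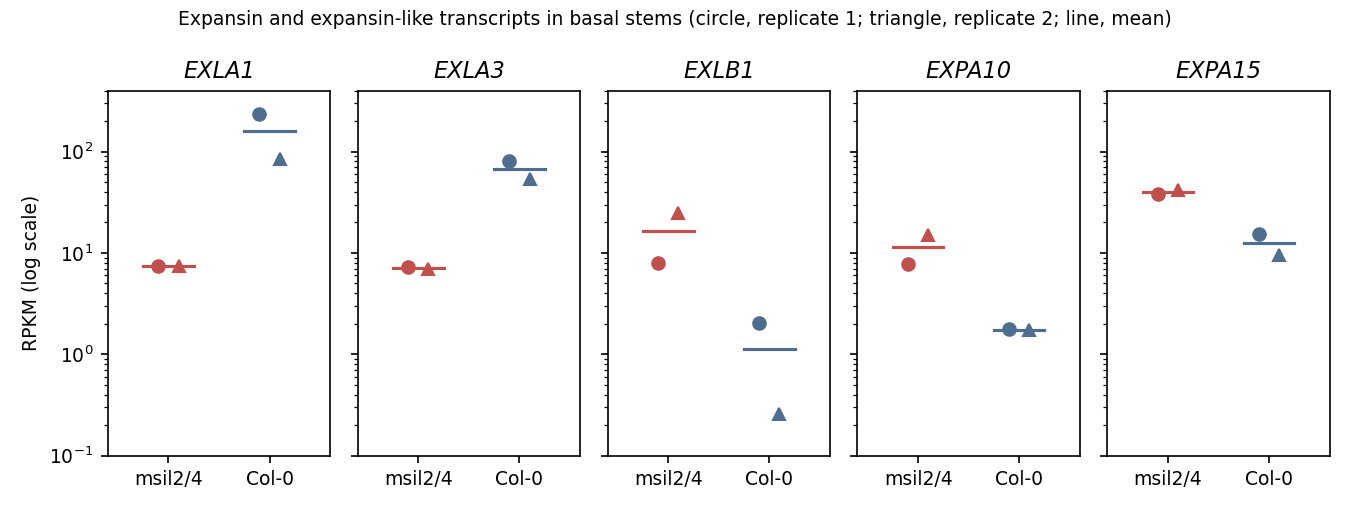
RPKM of the 5 genes (log axis) in the 2 *msil2/4* libraries (left in each panel) and the 2 Col-0 libraries (right), with circles for replicate 1, triangles for replicate 2 and lines for the mean. *EXLA1* and *EXLA3* sit near 7 RPKM in both *msil2/4* libraries and at 53.4 RPKM or more in Col-0, and the other 3 genes sit higher in *msil2/4*.

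For all 5 genes the *msil2/4* libraries and the Col-0 libraries did not overlap. This is a property of nearly every gene in the tables, since both *msil2/4* libraries lay above both Col-0 libraries in 65.8% of the 234 listed genes and below them in 33.3%, and nothing about the expansin genes is read from it. With 2 libraries against 2, an exact two-sided permutation test could not go below p = 0.333. The median log2 difference was -1.80 over the 78 genes of the lower table, in a range of -5.18 to -1.22, and 2.03 over the 156 genes of the higher table, in a range of 1.13 to 7.31. Both *EXLA* differences were thus further from 0 than the median of their table, as was that of *EXLB1*, while *EXPA10* was near the median and *EXPA15* below it.

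**Figure D3:**
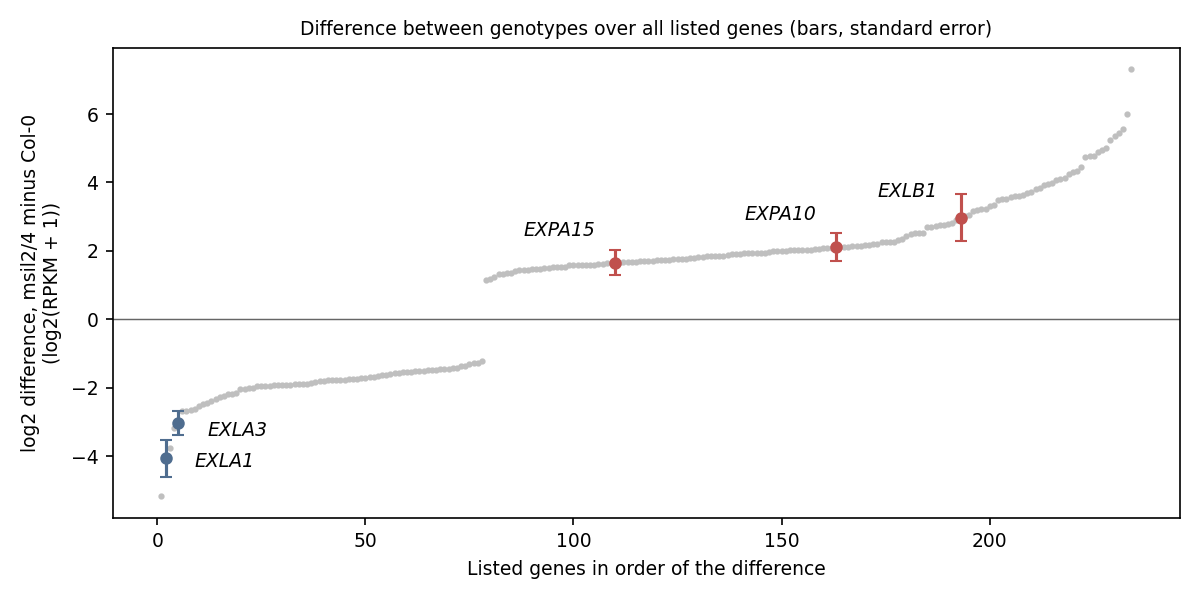
Difference of log2(RPKM + 1), *msil2/4* minus Col-0, for the 234 listed genes in rank order (grey), with the 5 expansin and expansin-like genes in color and their standard errors as bars. *EXLA1* (-4.07) and *EXLA3* (-3.04) are at the low end, and *EXPA15* (1.65), *EXPA10* (2.11) and *EXLB1* (2.97) lie within the body of the higher genes.

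The spread between replicates differed among these genes and between genotypes. The Col-0 libraries differed by 1.48 on the log2 scale for *EXLA1*, a wider gap than in 93.6% of the listed genes, while the *msil2/4* libraries differed by 0.02. For *EXPA10* the order was turned, with a gap of 0.89 in *msil2/4* and 0.04 in Col-0. *EXLB1* was wide in both, with gaps of 1.52 in *msil2/4* and 1.26 in Col-0, wider than in 94.4% and 89.7% of the listed genes. Replicate 1 was the higher Col-0 library for all 5 genes, whereas in *msil2/4* replicate 2 was the higher library for each gene but *EXLA3*. How many of all listed genes had the same order was not computed, so nothing about the expansin genes is read from it. Over all listed genes the median gap was 0.39 in *msil2/4* and 0.45 in Col-0.

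Summed by group, the balance between the genes was turned over. The *EXLA* pair summed to 14.6 and 14.46 RPKM in the *msil2/4* libraries, against 316 and 137 RPKM in the Col-0 libraries. *EXLB1*, *EXPA10* and *EXPA15* together summed to 54.2 and 82.2 RPKM in the *msil2/4* libraries, against 19.3 and 11.45 RPKM in the Col-0 libraries. The *EXLA* pair made up 21.3% and 14.95% of the summed RPKM of the 5 genes in *msil2/4*, against 94.2% and 92.3% in Col-0. As a ratio, *EXLA* over the other genes was 0.223 ± 0.0665 in *msil2/4* and 14.2 ± 3.09 in Col-0 (SD, n = 2 each). The sum of all 5 was 68.8 and 96.7 RPKM in *msil2/4*, below the 335 and 148 RPKM of Col-0. The direction of this contrast follows from the tables in which the genes were listed, so it is given as a measure of size only.

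Within the sums, the leading gene changed. *EXLA1* alone held 10.7% and 7.74% of the summed RPKM in *msil2/4*, against 70.2% and 56.3% in Col-0. *EXPA15* held 55.9% and 43.6% in *msil2/4*, against 4.63% and 6.38% in Col-0. *EXLB1* held 11.6% and 25.8% in *msil2/4*, against 0.603% and 0.175% in Col-0. Between the α-expansin genes, *EXPA15* stayed above *EXPA10* in every library, by a ratio of 4.99 and 2.78 in *msil2/4*, against 8.66 and 5.51 in Col-0. Because stems were sequenced in bulk, fewer cells that express a gene and less RNA per cell cannot be told apart for any of these values.

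**Figure D4:**
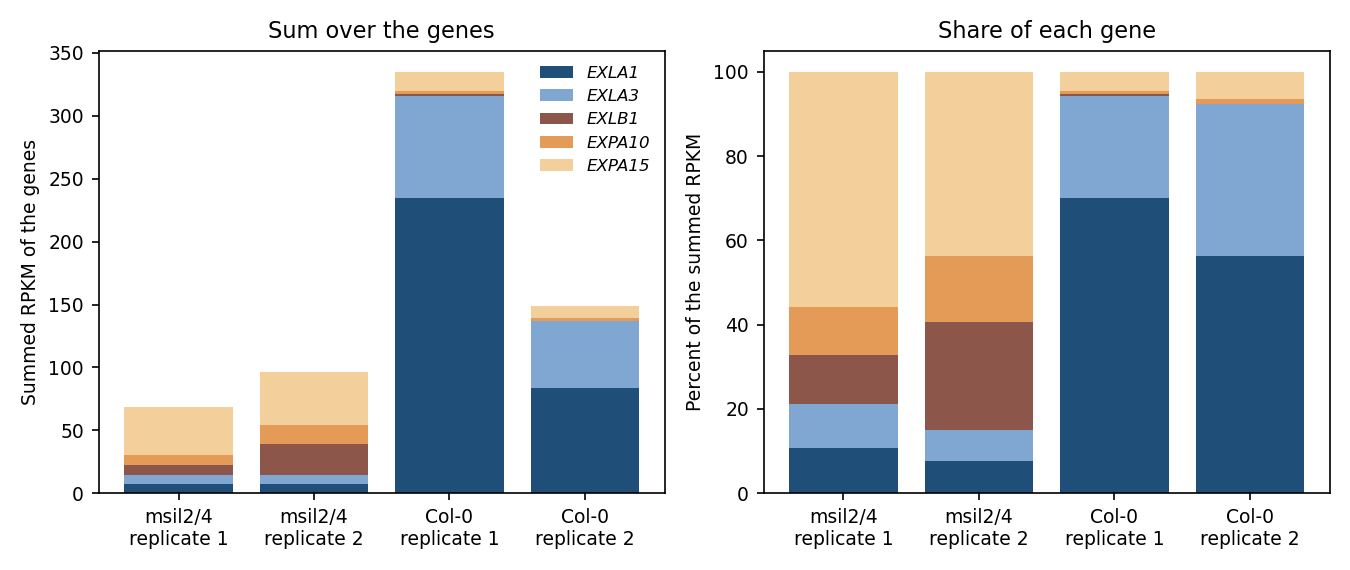
Summed RPKM of the 5 genes in each library (left) and the percent of that sum from each gene (right), with *EXLA* genes in blue, *EXLB1* in brown and *EXPA* genes in orange. The *EXLA* genes make up 21.3% and 14.95% in the *msil2/4* libraries and 94.2% and 92.3% in the Col-0 libraries.

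The listed genes whose profiles were most like each of the 5 were found by the Euclidean distance between log2(RPKM + 1) values over the 4 libraries, each profile centered on its own mean. Closest to *EXLA1* was *EXLA3* at a distance of 1.21, followed by *LTI78* (AT5G52310), the cold and desiccation responsive gene also called *RD29A*, at 1.63. For *EXLA3* the closest were AT5G62360, a gene of the invertase and pectin methylesterase inhibitor family, at 0.43, and *LTI78* at 0.61, with *EXLA1* in the 20th place. AT5G62360 was at 16.2 and 14.8 RPKM in *msil2/4*, against 115 and 92.6 RPKM in Col-0. The *EXLA* pair was thus alike in direction and in mutant level, but the difference between genotypes was larger for *EXLA1* than for its neighbor. How much larger rests in part on Col-0 replicate 1. Without that library the log2 differences were -3.33 for *EXLA1* and -2.74 for *EXLA3*, against -4.07 and -3.04 with all libraries. Whether the genes differ in this was not tested.

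Closest to *EXLB1* were *HIPP20* (AT1G71050), which encodes a heavy metal-associated isoprenylated protein, at 0.85, and the gibberellin-regulated gene *GASA6* (AT1G74670) at 0.96. *EXPA10* came 6th for *EXLB1*, at 1.30. Closest to *EXPA10* were the annexin gene *ANNAT2* (AT5G65020) at 0.29 and the receptor-like kinase gene *CRK4* (AT3G45860) at 0.31. *ANNAT2* was at 78.2 and 170 RPKM in *msil2/4*, against 26.9 and 31.5 RPKM in Col-0, so that it shared the higher second mutant library of *EXPA10*. Closest to *EXPA15* were *DMR6* (AT5G24530), which encodes a salicylic acid hydroxylase, at 0.14, and the glycosyltransferase gene AT2G16890 at 0.17. *DMR6* was at 156 and 161 RPKM in *msil2/4*, against 58.2 and 41.1 RPKM in Col-0. *EXPA10* and *EXPA15* were 0.83 apart and were not among each other's nearest genes. Each of these neighbors was listed in the same table as the gene it was matched to, and with 4 libraries from selected genes the distances describe these profiles only.

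In the genome, *EXLA3* and *EXLA1* were 1 of 11 pairs of listed protein-coding genes that are next to each other, and 10 of these pairs had both genes in the same table. Only 2 of the 11 pairs were in the table of lower transcripts. With 156 of the 234 listed genes in the table of higher transcripts, many pairs share a table wherever they lie. That share was not computed, and nothing about the *EXLA* pair is read from the count. *EXLB1* lies at chr4:9581562-9583290 on the minus strand, *EXPA10* at chr1:9259432-9261313 on the plus strand and *EXPA15* at chr2:916806-918671 on the minus strand, each with 4 exons, and none of the 3 had a listed gene within 2 places on either side. Their proteins have 250, 259 and 253 residues. A further listed gene, AT2G18660, carries the annotation synonym expansin-like B3 precursor but is known as the natriuretic peptide gene *PNP-A*, and it was left out of the sums above. Named after its values were seen, it was at 37.7 and 17.5 RPKM in *msil2/4*, against 1.31 and 0.80 RPKM in Col-0.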

How the data were processed

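Reads had been mapped by the authors on TAIR10 (TopHat2 2.0.7, Bowtie2 2.3.4). They used Cufflinks 2.2.1 for quantification and compared genotypes with Cuffdiff (version not given in the sources used here). The deposited values are RPKM per library and 1 RPKM per genotype, and only for the 234 genes called different. The deposited log2 fold change column, the authors' own comparison, was not used. The deposited RPKM per genotype were not the library means, being a median 0.938 times these in *msil2/4* and 1.06 times in Col-0. The paper and the labels name different library kits, and the tables and the paper differ on whether the limit of 0.05 was on a P value or an FDR. The paper describes a filter at 1 RPKM, yet 170 of the 234 genes were at 1 RPKM or more in all libraries.

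Samples were grouped by their titles. Differences and standard errors came from limma 3.58.1 in R 4.3.3, fitted to log2(RPKM + 1) over all 234 genes. A run on simulated data with a common spread for all genes was judged by the mean error of the differences only. It did not check the standard errors. A difference on this scale understates the change of low genes. The variance prior, with 3.27 degrees of freedom, was fitted to genes that had been listed for differing. No p-values were computed, since the genes were chosen from this contrast. Genes, lists, motifs and alternatives were chosen with earlier results of these data known. Named genes were the 5 genes and the 2 listed genes nearest to each in profile, and *PNP-A* was added after its values were seen. Without read totals the counting error is unknown.

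Sequences and annotation are from RefSeq TAIR10.1, in which 234 of 234 identifiers were found. Identities came from global alignments with free end gaps, as a percent of the length of the shorter protein. They were computed in Biopython 1.88 under Python 3.11.15, with figures in matplotlib 3.10.9. Alternatives were pseudocounts of 0.1 and 0.01 RPKM, values rescaled to or replaced by the deposited ones per genotype, a filter at 1 RPKM, a replicate block and leaving out each library.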

Additional observations from a re-analysis of the deposited data

How the results depend on the processing

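The direction of the 5 differences is fixed by the choice of genes, whose libraries do not overlap, so its persistence under the alternatives says nothing about stability. The values that moved by more than the replicate spread came from the pseudocount. With 0.1 and 0.01 RPKM in place of 1, the log2 difference of *EXLB1* was 4.03 and 4.26 (2.97 with 1), that of *EXPA10* was 2.56 and 2.62 (2.11), and the *EXLA* mean minus the mean of the other 3 genes was -6.47 and -6.59 (-5.80). Leaving out each library in turn, which cannot move a difference by more than the spread within the genotypes, gave -4.81 to -3.33 for *EXLA1*, -3.33 to -2.74 for *EXLA3*, 2.21 to 3.73 for *EXLB1*, 1.66 to 2.55 for *EXPA10*, 1.32 to 1.98 for *EXPA15* and -6.23 to -5.36 for the contrast. The *EXLA* ratio then ranged over 0.176 to 0.270 in *msil2/4* and 12.0 to 16.3 in Col-0, and the genes without overlap over 232 to 234. Rescaling to the deposited values per genotype moved the median of all listed genes by -0.14 on the log2 scale and gave -4.24 for *EXLA1* and 1.48 for *EXPA15*. The replicate block left the difference of *EXLA1* at -4.07, and those of the other genes as they were, since the design is balanced. It did change the standard errors, to 0.51 for each of the 5 genes. Without the block they were 0.55 for *EXLA1*, 0.36 for *EXLA3*, 0.68 for *EXLB1*, 0.41 for *EXPA10* and 0.37 for *EXPA15*. Replicate numbers were not treated as pairs, because the labels give no shared batch and the deviations of same-numbered libraries correlated at 0.067. With at least 1 RPKM required in all 4 libraries, 169 of 170 genes did not overlap, against 232 of 234, and *EXLB1* was no longer among them. Depth limits *EXLB1* most, as its lowest value is 0.26 RPKM, and values of unlisted genes were not analysed here.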
